A study of Mus musculus with 6 samples.

Results

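Interferon-stimulated genes are the genes that cells switch on when they receive an interferon, and 42 of them were taken as a fixed list of symbols and looked up in the RNA-seq of a mouse thymoma cell line. Of the 42 symbols, 41 had a locus among the 25001 loci measured, of which 22601 carry a gene symbol. No symbol had more than 1 locus. The exception was Irf9, the DNA-binding subunit of the main interferon transcription factor, whose position on GRCm38 (chromosome 14, 55603985 to 55610030) lay inside a longer locus named Rnf31 (55591178 to 55610030), so that its own level could not be read. The members were described across transfection and sorting, the intracellular domain EICD, the phorbol ester PMA, and cell line.

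RNA from 427.1.86 thymoma cells (427) and from 427 cells with a knockdown of SPPL2b (SP2bKD), an intramembrane protease, was sequenced in 6 libraries, 1 library for each condition. The 427 cells, given as wild type, carried the empty pSUPER vector and received DMSO or 1 µM PMA for 2 h, after 2 h without serum, and SP2bKD cells were handled in the same 2 ways. The other libraries came from SP2bKD cells transfected with a GFP vector, or with the GFP vector and Flag-EICD (the cytoplasmic N-terminal part of the protease epithin/PRSS14), and sorted for GFP the day after. The labels give an siRNA against SPPL2b for the knockdown libraries, whereas the methods describe single-cell clones with a stable shRNA selected with G418, and the labels do not name the clone of the DMSO and PMA libraries.

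For the sorted libraries no serum deprivation or DMSO was given in the sources used here. In the comparison of the GFP library with SP2bKD cells in DMSO, plasmid transfection, sorting, serum and handling therefore cannot be told apart. No library of mock-transfected or of sorted but untransfected cells was analysed here.

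Interferons are secreted after a cell senses foreign nucleic acid, for example through the RNA helicases encoded by Ddx58 and Ifih1 or through DNA sensors. Type I interferon binds the receptor made of IFNAR1 and IFNAR2, and the kinases JAK1 and TYK2 then activate STAT2, which acts with IRF9 at the interferon-stimulated response element (ISRE). The induced proteins block viral RNA and protein synthesis, tag proteins with ISG15, feed back on the receptor or attract lymphocytes, and plasmid DNA delivered to the cytosol is a known trigger of this pathway in cells that hold DNA sensors.

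Values are FPKM, fragments per kilobase of exon scaled to the size of the library, a level per length that can be set side by side between genes. Between 10555 and 10873 loci per library reached 1 FPKM, and the estimated depth was 24500000 to 29050000 fragments. Sppl2b, the gene targeted by the knockdown, had an FPKM of 9.90 and 6.86 in 427 cells with DMSO and PMA, and 13.4, 9.37, 11.4 and 13.2 in the libraries labelled SP2bKD, so that this RNA was not lower under the knockdown label. St14, the gene of epithin/PRSS14, had 614.5 FPKM in the GFP plus EICD library and 69.6 to 105 in the others. Of 14 thymic epithelial markers 11 reached 1 FPKM, led by Krt5 at 3851 to 10705, while Aire was at 0. Of 16 T cell markers only Rag1 reached 1 FPKM (1.73 to 3.50) and 7 were at 0 in every library. Of 12 macrophage and dendritic cell markers, Csf1r, Cd68 and Cd14 did, with a summed level of the list between 7.11 and 12.6 FPKM, and no fibroblast or endothelial marker did.

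Because the ISRE is the sequence through which many of these genes respond to interferon, the 250 bases before the transcription start were read for members with an entry in the RefSeq promoter table (GRCm38.p6), which held 31 of the 42. The ISRE was searched as GAAA, any 2 bases and GAAA again, or on the other strand TTTC, any 2 bases and TTTC, with overlapping matches counted separately. It was present in 12 of 31 members (38.7%), against 3.46% of 27025 genes in the table, and in 6 members it occurred at least 2 times (Bst2, Gbp3, Ifit1, Ifit3, Isg15 and Oas1a). The other ISRE-bearing members were Cxcl10, Gbp2, Gbp7, Oas3, Rsad2 and Stat2. The gamma-activated sequence, searched as TTCNNNGAA, the same on both strands, was in 7 members (22.6%) and in 8.13% of all genes. Printed first are the promoters of the 4 members with the largest log2 ratio of the GFP library over the SP2bKD library with DMSO, among those with an entry and 1 FPKM or more in either of these libraries. Members under 1 FPKM in both were not considered, among them Ifit1, Oas3, Cxcl10, Ifi44 and Oas1a, whose ratios were larger than that of Ifi35 and which, apart from Ifi44, hold an ISRE. The promoters of Stat2, Xaf1 and Cxcl10, chosen after their values were seen because they moved in several comparisons, follow. Each is written 5′ to 3′ on the strand of the gene with ISRE matches in capitals.
Isg15 (chr4:156200819-156201068, minus strand): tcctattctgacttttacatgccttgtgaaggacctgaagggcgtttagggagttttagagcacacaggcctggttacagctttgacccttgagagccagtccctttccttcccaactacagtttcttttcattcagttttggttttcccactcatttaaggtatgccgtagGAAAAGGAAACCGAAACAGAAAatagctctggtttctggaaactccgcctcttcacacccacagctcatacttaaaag
Ifi35 (chr11:101448162-101448411, plus strand): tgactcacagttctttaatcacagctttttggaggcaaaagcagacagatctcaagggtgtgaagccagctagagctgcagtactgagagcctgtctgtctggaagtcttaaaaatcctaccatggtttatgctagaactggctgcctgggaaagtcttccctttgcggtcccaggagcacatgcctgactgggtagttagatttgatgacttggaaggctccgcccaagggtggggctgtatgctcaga
Ifih1 (chr2:62646256-62646505, minus strand): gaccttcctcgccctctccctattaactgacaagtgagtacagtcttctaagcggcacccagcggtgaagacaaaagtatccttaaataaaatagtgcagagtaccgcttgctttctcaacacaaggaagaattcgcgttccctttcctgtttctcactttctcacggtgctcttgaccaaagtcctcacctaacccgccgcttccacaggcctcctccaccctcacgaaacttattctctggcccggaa
Trim25 (chr11:88999153-88999402, plus strand): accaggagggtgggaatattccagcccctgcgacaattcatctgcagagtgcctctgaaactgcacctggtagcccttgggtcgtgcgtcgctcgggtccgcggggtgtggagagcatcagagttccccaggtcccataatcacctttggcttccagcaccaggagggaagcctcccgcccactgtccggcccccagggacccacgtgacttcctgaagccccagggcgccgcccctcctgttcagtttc
Stat2 (chr10:128270248-128270497, plus strand): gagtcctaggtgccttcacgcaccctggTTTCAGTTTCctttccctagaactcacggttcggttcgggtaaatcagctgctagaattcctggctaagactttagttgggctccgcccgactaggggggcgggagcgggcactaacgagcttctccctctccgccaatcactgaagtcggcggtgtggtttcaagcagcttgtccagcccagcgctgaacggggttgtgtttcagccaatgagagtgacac
Xaf1 (chr11:72301379-72301628, plus strand): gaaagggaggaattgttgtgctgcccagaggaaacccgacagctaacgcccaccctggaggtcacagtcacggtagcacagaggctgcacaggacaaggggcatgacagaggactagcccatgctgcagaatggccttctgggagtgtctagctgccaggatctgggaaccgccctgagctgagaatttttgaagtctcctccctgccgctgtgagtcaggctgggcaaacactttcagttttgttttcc
Cxcl10 (chr5:92348890-92349139, minus strand): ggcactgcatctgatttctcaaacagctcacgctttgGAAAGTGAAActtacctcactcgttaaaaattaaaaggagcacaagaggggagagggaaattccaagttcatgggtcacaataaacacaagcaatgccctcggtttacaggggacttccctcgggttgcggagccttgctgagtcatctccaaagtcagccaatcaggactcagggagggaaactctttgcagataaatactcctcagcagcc

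In Isg15 the capitals cover 3 overlapping matches that begin 78, 72 and 66 bases before the start. In Cxcl10 and Stat2 a single match began 213 and 222 bases before the start. Ifi35, Ifih1, Trim25 and Xaf1 held no match in this window, which says only that these letters are not there. A match is a description of the letters and not a site known to be used.

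The members spanned a wide range of levels. Of the 41, 25 reached 1 FPKM in at least 1 library, 14 did so in all 6 libraries, 15 stayed above 0 but under 1 FPKM, and Cxcl11 was at 0 throughout. Only 5 members held 10 FPKM or more in every library, namely Bst2, Irf1, Trim25, Adar and Isg20. The number of members at 1 FPKM or more was 16 and 19 in 427 cells with DMSO and PMA, 16 and 20 in SP2bKD cells, 17 with GFP and 23 with GFP plus EICD. Because each condition has 1 library, no error between replicates could be computed and no test was made. A change means here more than 2-fold either way, on the log2 scale with 0.01 added to both FPKM values, where either library compared reached 1 FPKM, and only such members are said to rise or fall. Intervals given beside a log2 ratio are 95% exact binomial intervals from estimated fragments, cover counting error only, and are lower limits of the true uncertainty. In bulk RNA, fewer cells expressing a gene and less RNA per cell cannot be told apart.

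**Figure D1:**
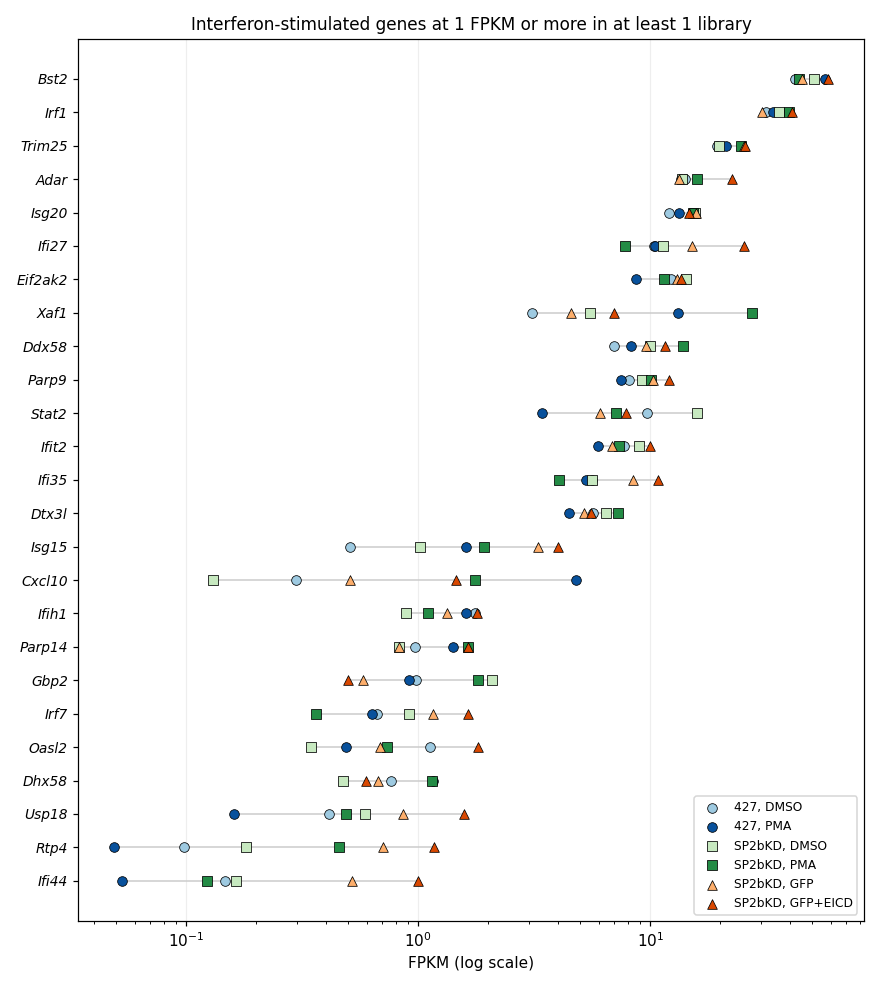
FPKM (log axis) of the 25 members that reached 1 FPKM in at least 1 library, 1 row per gene and 1 point per library, with circles for 427 cells, squares for SP2bKD cells and triangles for transfected and sorted SP2bKD cells, and a grey line over the range. Bst2 and Irf1 lie above 30 FPKM in every library, Cxcl10 and Xaf1 are highest with PMA, and both triangles lie to the right of every other point for Isg15, Ifi27, Ifi35, Irf7, Usp18, Rtp4, Ifi44, Trim25 and Parp9.

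Among the secreted members, Cxcl10, a chemokine that attracts activated T cells, showed the widest swing. Its FPKM was 0.296 in 427 cells with DMSO and 4.78 with PMA, 0.130 and 1.76 in SP2bKD cells with DMSO and PMA, 0.507 after transfection with GFP and 1.45 with GFP plus EICD. Both PMA libraries and the GFP plus EICD library were above 1 FPKM and the remaining 3 were below. The locus (chromosome 5, 92346638 to 92348889, minus strand) lies wholly within the locus of Art3 on the opposite strand, sharing 2252 bases, and whether fragments were counted by strand is not given in the sources used here. The related chemokines that bind the same receptor were nearly silent, with Cxcl9 above 0 in 427 cells with PMA alone (0.0156 FPKM) and Cxcl11 at 0.

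Isg15, a ubiquitin-like protein that is both secreted and joined to other proteins, had 0.507 and 1.61 FPKM in 427 cells with DMSO and PMA. In SP2bKD cells it had 1.02 and 1.92 FPKM, and after transfection with GFP or GFP plus EICD 3.27 and 4.02. Each of the sorted libraries was above all 4 others. Ifnb1, which encodes interferon beta, was above 0 in 427 cells with PMA alone, at 0.0594 FPKM, close to what a single fragment is worth.

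Of the RNA sensors, Ddx58 was above 1 FPKM in both DMSO libraries, Ifih1 in that of 427 cells alone and Dhx58 in neither. Ddx58, which encodes RIG-I, had 7.001 and 8.25 FPKM in 427 cells with DMSO and PMA, 10.0 and 13.8 in SP2bKD cells, 9.59 with GFP and 11.5 with GFP plus EICD. Ifih1, which encodes MDA5, had 1.76 and 1.61, 0.881 and 1.10, and 1.32 and 1.79 FPKM in the same order. Dhx58, the regulatory helicase LGP2, had 0.761 and 1.16, 0.474 and 1.14, and 0.674 and 0.597 FPKM. Dhx58 was thus highest in the PMA libraries, whereas Ifih1 was lowest in SP2bKD cells with DMSO. Zbp1, a sensor of Z-form nucleic acid, stayed at or under 0.171 FPKM and was at 0 in the GFP library.

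Of the transcription factors, Irf1 was high and even, with 31.5 and 33.7 FPKM in 427 cells, 35.8 and 39.6 in SP2bKD cells, and 30.5 and 40.7 in the GFP and GFP plus EICD libraries. Irf7, which amplifies interferon production, had 0.662 and 0.632, 0.908 and 0.362, and 1.15 and 1.64 FPKM. Stat2, the subunit that brings the activation domain to the ISRE-binding factor, had 9.73 and 3.42, 15.9 and 7.10, and 6.07 and 7.90 FPKM. The DMSO libraries thus held the highest Stat2 levels and the 4 others were below both. The locus named Rnf31 that covers Irf9 had 8.86 to 15.7 FPKM, a level that belongs to both genes. Irf1 shares 907 bases with Gm17334 and Irf7 shares 45 with Phrf1, each on the opposite strand.

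The effectors that act on RNA split into a group with steady levels and a group near 0. Eif2ak2, the kinase PKR that stops translation, had 12.3 and 8.65 FPKM in 427 cells, 14.3 and 11.5 in SP2bKD cells, and 13.0 and 13.5 in the sorted libraries. Adar, the RNA adenosine deaminase, had 14.2 and 13.6, 13.8 and 15.8, and 13.3 and 22.6 FPKM, with the GFP plus EICD library above every other. Isg20, a 3′ to 5′ exonuclease, stayed between 12.1 and 15.7 FPKM. Ifit2, which binds RNA and cap structures, had 7.68 and 5.93, 8.96 and 7.35, and 6.87 and 9.95 FPKM. Adar shares 7252 bases with Chrnb2 on the opposite strand.

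Oasl2, an oligoadenylate synthetase-like gene, had 1.13 and 0.486 FPKM in 427 cells with DMSO and PMA, 0.345 and 0.731 in SP2bKD cells, 0.683 with GFP and 1.81 with GFP plus EICD. PMA and DMSO stood in opposite order in the cell lines. The oligoadenylate synthetases Oas1a, Oas2 and Oas3, which make the activator of RNase L, were at 0 to 0.0609 FPKM in the 4 unsorted libraries. They were at 0.187, 0.0606 and 0.210 FPKM in the GFP library and at 0.564, 0.137 and 0.354 in the GFP plus EICD library. Ifit1 had 0.0137 to 0.234 FPKM in the unsorted libraries and 0.376 and 0.415 in the sorted libraries, whereas Ifit3 (0.131 to 0.432) and Oasl1 (0 to 0.116) overlapped between them. Members of the Ifit, Oas and Gbp families have near copies in the genome, so their low values may hold fragments of a relative.

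**Figure D2:**
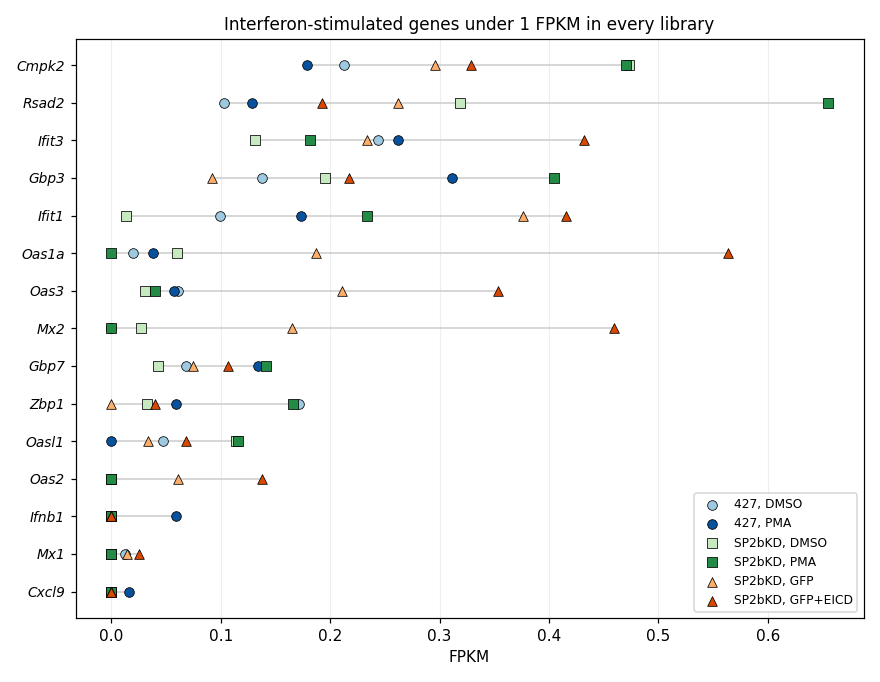
FPKM (linear axis) of the 15 members above 0 but under 1 FPKM in every library, 1 row per gene and 1 point per library, with the same symbols as for the expressed members. Mx2, Oas1a, Oas2, Oas3, Ifit1 and Mx1 have both triangles to the right of the circles and squares, while Rsad2, Cmpk2, Gbp3, Gbp7, Zbp1, Oasl1 and Ifit3 do not.

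Among the remaining effectors, Bst2, the tether that holds budding virus at the membrane, was the most abundant member, with 42.02 and 56.8 FPKM in 427 cells, 50.7 and 43.6 in SP2bKD cells, and 45.04 and 58.3 in the sorted libraries. Xaf1, a pro-apoptotic partner of XIAP, had 3.08 and 13.2, 5.48 and 27.4, and 4.54 and 6.96 FPKM. Both PMA libraries were above the other 4. Ifi27 had 10.4 and 10.5, 11.4 and 7.75, and 15.2 and 25.4 FPKM, and Ifi35 had 5.61 and 5.29, 5.58 and 4.06, and 8.44 and 10.8. For both genes the sorted libraries stood above the unsorted ones.

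The same held for lower members. Rtp4 had 0.0982 and 0.0489 FPKM in 427 cells, 0.182 and 0.454 in SP2bKD cells, and 0.704 and 1.17 in the sorted libraries. Ifi44 had 0.146 and 0.0530, 0.164 and 0.123, and 0.519 and 1.00 FPKM. The Mx GTPases followed at very low levels, with Mx2 at 0 to 0.0266 FPKM in the unsorted and 0.165 and 0.459 in the sorted libraries, and Mx1 at 0 to 0.0124 and then 0.0140 and 0.0256. Gbp2, a guanylate-binding GTPase that responds to interferon gamma, went the other way, with 0.974 and 0.914 FPKM in 427 cells, 2.07 and 1.80 in SP2bKD cells, and 0.578 and 0.497 in the sorted libraries. Its neighbours on chromosome 3, Gbp3 (0.0916 to 0.404 FPKM) and Gbp7 (0.0428 to 0.142), were highest in SP2bKD cells with PMA, as was Rsad2, the antiviral enzyme viperin (0.103 to 0.655). Cmpk2, the kinase gene next to Rsad2, had 0.179 to 0.473 FPKM and was highest in the unsorted SP2bKD libraries.

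Of the enzymes that modify proteins, Trim25, the ubiquitin ligase for RIG-I, had 19.3 and 21.3 FPKM in 427 cells, 19.8 and 24.5 in SP2bKD cells, and 25.3 and 25.6 in the sorted libraries. Usp18, which removes ISG15 and dampens the interferon receptor, had 0.412 and 0.161, 0.587 and 0.489, and 0.856 and 1.58 FPKM. Parp9 and Dtx3l, partners in an ADP-ribosyl and ubiquitin ligase complex, share 1084 bases on opposite strands and had 7.50 to 12.03 and 4.47 to 7.29 FPKM. Parp9 was highest in the sorted libraries and Dtx3l in SP2bKD cells with PMA. Parp14 had 0.967 and 1.42, 0.824 and 1.63, and 0.824 and 1.65 FPKM, with both PMA libraries and the GFP plus EICD library above the other 3.

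For plasmid transfection and sorting, the GFP library was set against SP2bKD cells with DMSO. Isg15 rose 3.19-fold (log2 ratio 1.67, interval 0.91 to 2.47), while Gbp2 fell by 1.82 (interval -2.40 to -1.29) and Stat2 fell by 1.39 (interval -1.52 to -1.26) on the log2 scale. The other 15 of the 18 members that passed the minimum lay within 2-fold, from Ifit2 at -0.38 to Ifi35 at 0.59. Thus 1 member rose and 2 fell, where 4.01% of 11066 loci rose and 5.14% fell, and the member median of -0.05 was close to the median of -0.08 over all loci. Gbp2 passed the minimum through the DMSO library alone and so had to be lower. Ifih1 and Irf7 passed through the GFP library alone and so had to be higher. Of the 15 members at 1 FPKM or more in both libraries 6 were above 0, 1 rose and 1 fell, with a median of -0.06. Of 10354 such loci 40.9% were above 0, 265 rose and 286 fell, with a median of -0.08. Of the 14 members with a mean of 0.1 to 1 FPKM over the compared libraries, 11 were higher in the GFP library, where 43.2% of 4109 loci in that range were. With no minimum, 23 of 38 members were higher, against 44.6% of loci.

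Each sorted library was above all 4 unsorted libraries for 15 of the 40 members above 0, where this held for 15.5% of 19385 loci. They were Isg15, Irf7, Ifit1, Oas1a, Oas2, Oas3, Mx1, Mx2, Ifi27, Ifi35, Ifi44, Rtp4, Usp18, Trim25 and Parp9. Among members that reached 1 FPKM in any library it was 9 of 25, against 14.5% of 11580 loci. Of the 9, Irf7 reached 1 FPKM in both sorted libraries and no other, and so had to be higher there. Usp18, Rtp4 and Ifi44 reached it with GFP plus EICD alone and so had to be higher in that library. By role the 15 were 1 of 5 secreted members, 0 of 4 sensors, 1 of 3 transcription factors, 4 of 11 effectors on RNA, 6 of 13 other effectors and 3 of 5 modifying enzymes. Both sorted libraries were below the others for Gbp2 alone, where 11.1% of loci were. Among the 15, Oas2 was above 0 in sorted libraries alone and so could only be higher there. The margin was narrow for Mx1, with 0.0140 FPKM in the lower sorted and 0.0124 in the highest unsorted library, about 1 fragment each. It was also narrow for Trim25 (25.3 and 24.5) and Parp9 (10.24 and 10.11). Of the 15, 8 had a promoter entry and 4 of those held an ISRE (Isg15, Ifit1, Oas1a and Oas3), and of the other 26 members 22 had an entry and 8 held an ISRE.

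Of a list of immediate early and stress genes, the immediate early genes stood far higher in the same libraries. The summed level over the 14 genes of the list was 288 to 368 FPKM in the unsorted libraries, 886 with GFP alone and 1470 once EICD was added. With transfection and sorting 8 of the 14 rose, where 4.01% of all loci did, namely Fos, Fosb, Jun, Junb, Egr1, Ier2, Atf3 and Dusp1. The stress genes Hspa1a, Dnajb1, Ddit3, Trib3, Gadd45a and Hmox1 lay within 2-fold, at log2 ratios from -0.22 to 0.41. Fos went from 0.823 to 148 FPKM. Markers of other cell types moved as well, since the macrophage and dendritic cell list summed to 10.8 to 12.6 FPKM in the unsorted libraries and to 7.11 and 8.30 in the sorted ones, with Csf1r at 4.85 to 7.35 and then 2.46 and 2.37. Of the other markers in this list that reached 1 FPKM, Cd68 went the other way, with 1.25 to 1.58 FPKM in the unsorted and 1.96 and 2.58 in the sorted libraries, and Cd14 overlapped, with 2.97 to 5.78 and then 2.56 and 3.07. Of 11 thymic epithelial markers that passed the minimum, 4 rose and 1 fell. The part of either in the levels of the interferon-stimulated genes was not tested.

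For EICD, the GFP plus EICD library was set against the GFP library. Cxcl10 rose 2.83-fold (log2 ratio 1.50, interval 0.87 to 2.17) and Oasl2 rose 2.63-fold (log2 ratio 1.40, interval 0.95 to 1.90), and no member fell. That is 2 of 23 members that passed the minimum, where 3.93% of 11000 loci rose and 0.836% fell. Just under 2-fold lay Parp14 at 0.99 (interval 0.71 to 1.29), Ifi44 at 0.94 and Usp18 at 0.87, followed by Adar at 0.76 (interval 0.68 to 0.84), Ifi27 at 0.75, Rtp4 at 0.72 and Xaf1 at 0.61.

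Small differences ran in 1 direction. Of the 23 members 22 were higher with EICD, Isg20 being the exception at -0.10, and 58.1% of all loci were higher. Their median was 0.43, against 0.07 over all loci. Cxcl10, Oasl2, Ifi44, Rtp4, Usp18 and Parp14 passed the minimum through the GFP plus EICD library alone and so had to be higher there. Of the 17 members at 1 FPKM or more in both libraries, 16 were higher, with a median of 0.37, where 57.3% of 10496 such loci were higher with a median of 0.06. With no minimum 34 of 38 members were higher, against 58.6% of loci. By mean level over the compared libraries, 10 of 13 members at 0.1 to 1 FPKM were higher, against 62.3% of 3975 loci. At 1 to 10 FPKM 11 of 11 members were, against 70.0% of 3323 loci, with medians of 0.51 and 0.20. At 10 to 100 FPKM 8 of 9 members were, against 56.0% of 6559 loci, with medians of 0.27 and 0.04. Ratios near 0 were found for Trim25 (0.01), Eif2ak2 (0.06) and Dtx3l (0.09), while Ifit2 (0.53), Irf7 (0.51), Ifih1 (0.43), Irf1 (0.42), Stat2 (0.38), Bst2 (0.37), Ifi35 (0.35), Isg15 (0.30), Ddx58 (0.27) and Parp9 (0.23) lay between. The interval for Isg15, -0.20 to 0.80, included no difference.

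Stress genes moved in the same comparison. Of the 14, 4 rose with EICD, with Trib3 from 6.57 to 60.9 FPKM and Atf3 from 33.0 to 121. Whether they bear on the members was not tested.

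**Figure D3:**
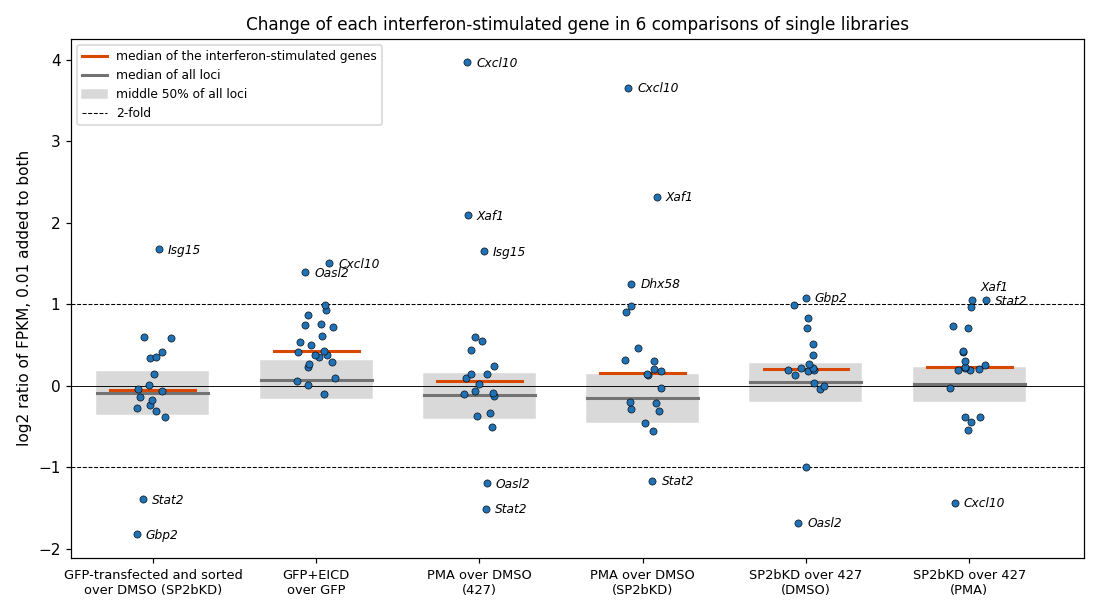
Log2 ratio of FPKM, with 0.01 added to both values, for each member that passed the minimum (blue points) in the 6 comparisons of single libraries, with the member median (orange), the median of all loci (grey line), the middle 50% of all loci (grey box) and 2-fold (dashed). Cxcl10 stands highest in both PMA comparisons and with EICD, Stat2 lies below the lower dashed line in 3 comparisons, and with EICD the member median of 0.43 lies above the grey box.

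PMA, which activates protein kinase C, was compared with DMSO in each cell line. In 427 cells Cxcl10 rose 15.6-fold (log2 ratio 3.97, interval 3.30 to 4.76), Xaf1 rose 4.27-fold (2.09, interval 1.88 to 2.32) and Isg15 rose 3.14-fold (1.65, interval 0.65 to 2.88). Stat2 fell by 1.51 (interval -1.67 to -1.35) and Oasl2 fell by 1.20 (interval -1.75 to -0.66) on the log2 scale. Hence 3 of 20 members rose and 2 fell, where 4.44% of 10981 loci rose and 5% fell, while 11 members were above 0, against 37.6% of loci, with a median of 0.06 against -0.12. Cxcl10, Isg15, Dhx58 and Parp14 passed the minimum through the PMA library alone and so had to be higher. Oasl2 passed through the DMSO library alone and so had to be lower. Of the 15 members at 1 FPKM or more with both DMSO and PMA, 7 were above 0, 1 rose and 1 fell, with a median of -0.06, where 37.8% of 10334 such loci were above 0 with a median of -0.11.

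In SP2bKD cells Cxcl10 rose 12.6-fold (log2 ratio 3.66, interval 2.75 to 5.18), Xaf1 rose 4.99-fold (2.32, interval 2.16 to 2.49) and Dhx58 rose 2.38-fold (1.25, interval 0.64 to 1.94). Stat2 was again the member that fell, 2.24-fold (interval of the log2 ratio -1.28 to -1.05). Here 3 of 20 members rose and 1 fell, where 3.83% of 10987 loci rose and 6.4% fell, while 12 members were above 0, against 35.5% of loci, with a median of 0.16 against -0.15. Cxcl10, Dhx58, Ifih1 and Parp14 passed through the PMA library alone. Of the 16 members at 1 FPKM or more with both DMSO and PMA, 8 were above 0, 1 rose and 1 fell, with a median of 0.05, where 35.8% of 10366 such loci were above 0 with a median of -0.14. Parp14, at log2 ratios of 0.55 in 427 and 0.98 in SP2bKD cells, and Isg15 in SP2bKD cells, at 0.91 (interval 0.08 to 1.73), stayed under 2-fold. Most other members were nearly level, among them Irf1 (0.10 and 0.14), Trim25 (0.14 and 0.31) and Ddx58 (0.24 and 0.46), while Eif2ak2 (-0.51 and -0.31) and Ifit2 (-0.37 and -0.28) were lower in both lines.

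The PMA ratio in SP2bKD minus that in 427 cells had a median of 0.19 over 21 members and of -0.0012 over 11281 loci. The difference exceeded 1 in size for 1 of the 21 members and for 519 of the 11281 loci. The member was Oasl2 at 2.26, from -1.20 in 427 to 1.06 in SP2bKD cells, where it stayed under 1 FPKM in both libraries. It was among the 21 through the 427 library with DMSO alone, and so had to be lower with PMA in 427 cells. These differences have no error between replicates and were not tested.

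**Figure D4:**
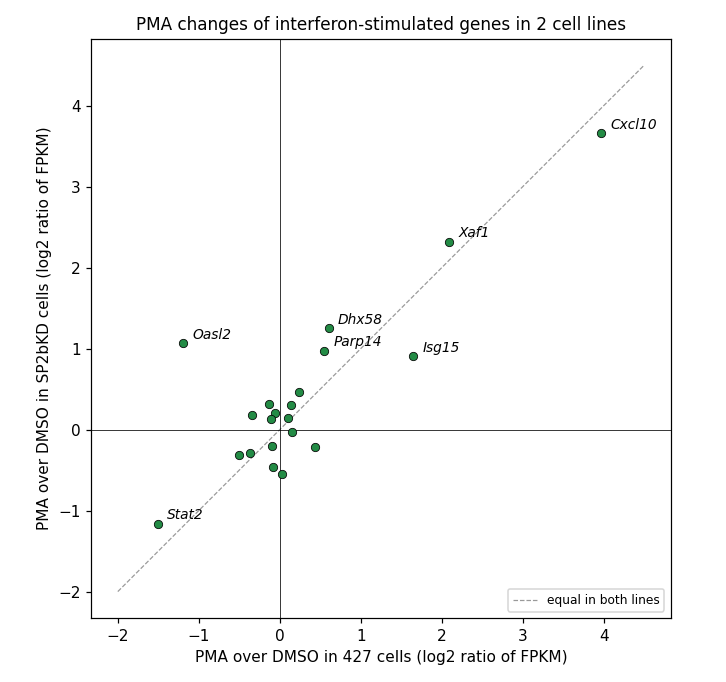
Log2 ratio of PMA over DMSO in SP2bKD cells (vertical) against that in 427 cells (horizontal), 1 point per member that passed the minimum in either line, with a dashed line where both are equal. Cxcl10 and Xaf1 lie high and Stat2 low in both lines, near the dashed line, and Oasl2 lies at -1.20 and 1.06, far from it.

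Between the cell lines with DMSO, Gbp2 was 2.12-fold higher in the library labelled SP2bKD (log2 ratio 1.08, interval 0.65 to 1.53) and Oasl2 was 3.20-fold lower (log2 ratio -1.68, interval -2.40 to -1.10). Ifih1 and Isg15 lay just under 2-fold at -0.99 and 0.99. Gbp2 and Isg15 passed the minimum through the SP2bKD library alone and so had to be higher. Oasl2 and Ifih1 passed through the 427 library alone and so had to be lower. So 1 of 18 members was called higher and 1 lower, where 3.92% of 11078 loci were higher and 3.13% lower. Of the 14 members at 1 FPKM or more in both DMSO libraries 12 were above 0, 0 were called higher and 0 lower, with a median of 0.20. Of 10479 such loci 56.2% were above 0, 244 were called higher and 163 lower, with a median of 0.05. With PMA, Stat2 and Xaf1 were each 2.07-fold higher in the library labelled SP2bKD (log2 ratio 1.05 for both) and Cxcl10 was 2.70-fold lower (-1.43, interval -1.76 to -1.12). This was 2 of 20 members higher and 1 lower, where 2.56% of 10840 loci were higher and 3.27% lower. Gbp2 passed through the SP2bKD library with PMA alone and so had to be higher. Of the 19 members at 1 FPKM or more in both PMA libraries 13 were above 0, with a median of 0.22. Of 10271 such loci 53.4% were above 0, with a median of 0.02. With 14 members above 0 in each comparison, the member medians were 0.20 and 0.23, where 56% and 53.2% of loci were above 0 with medians of 0.05 and 0.02. When each library was scaled to the same FPKM sum instead, 13 of 18 members were called higher and 0 lower with DMSO and 15 of 20 and 0 with PMA. In that scaling 5661 of 11078 loci were higher with DMSO and 8555 of 10840 with PMA, and the medians over all loci stood at 1.01 and 1.26. The comparisons with DMSO share libraries with the PMA comparisons, and the transfection comparison shares the GFP library with that of EICD.

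Around the members, the parts of the pathway that receive interferon were present and the interferons were not. None of 20 interferon genes reached 1 FPKM, 15 were at 0 in every library and the highest value was 0.151. All 15 receptor and signalling genes found, of 17 listed, reached 1 FPKM. The receptor chains Ifnar1 and Ifnar2 had 16.7 to 23.1 and 13.0 to 17.6 FPKM, Ifngr1 15.1 to 16.3, and the kinases Jak1 and Tyk2 37.9 to 74.4 and 7.32 to 10.1.

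In this list the feedback inhibitor Socs3 rose with transfection and sorting (log2 ratio 2.11) as the single call among 15 genes. With EICD, Socs1, another inhibitor, was the single call and fell by 1.46 on the log2 scale. It passed the minimum through the GFP library alone and so had to be lower. With PMA no gene of the list was called in 427 cells, while Socs1 (1.72) and Ifngr2 (1.12) rose in SP2bKD cells. Socs1 passed there through the PMA library alone. Over all loci 4.01% rose and 5.14% fell with transfection and sorting, and 3.93% rose and 0.836% fell with EICD. With PMA 4.44% of loci rose in 427 cells and 3.83% in SP2bKD cells.

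Of 24 genes for sensing nucleic acid and inducing interferon, 23 were found. Irf3 (19.3 to 23.9 FPKM), Mavs (15.3 to 18.7) and Tlr3 (6.50 to 13.4) were expressed, while the DNA sensor cGAS (Mb21d1) stayed at or under 0.0368 and STING (Tmem173) at or under 0.823 FPKM. No gene of this list among 18 was called for transfection and sorting, and with EICD 1 of 19 rose, Irf5 (1.32). Irf5 passed the minimum through the GFP plus EICD library alone and so had to be higher. With PMA in 427 cells 5 of 18 rose, the kinase Ikbke (2.21), the DNA-binding Ifi204 (1.63), Tlr2 (1.54), Aim2 (1.52) and Lrrfip1 (1.03). Tlr2 and Aim2 passed there through the PMA library alone. In SP2bKD cells 3 of 18 rose, Ikbke (2.05), Ifi204 (1.88) and Tlr2 (1.12). Between the cell lines Aim2 was the single call of this list, at 1.69 with DMSO, and none of 18 was called with PMA. Aim2 passed with DMSO through the SP2bKD library alone. Over all loci 3.93% rose with EICD, and 4.44% and 3.83% rose with PMA in 427 and SP2bKD cells. Between the lines with DMSO 3.92% of loci were higher in SP2bKD cells.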

How the data were processed

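Paired-end libraries of mRNA enriched with oligo dT were sequenced on an Illumina HiSeq 2500. The authors aligned reads with TopHat2 2.1.1 and computed FPKM with Cufflinks and Cuffdiff 2.1.1, as deposited, 1 value per locus and library, on GRCm38. The processing notes also name STAR 2.4.0b without its role. FPKM depends on the assembled gene models, and its sum is dominated by a few loci (the 10 largest held 85.6% to 94.2%).

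Log2 ratios were computed from FPKM with 0.01 added to both values, at 1 FPKM or more in at least 1 library, with SciPy 1.17.1, pandas 2.3.3 and NumPy 2.4.6 under Python 3.11.15 (plots with matplotlib 3.10.9). The calculation was tested on simulated data. No p-value was computed, since each condition has 1 library. Depth was estimated from the lowest FPKM of genes with transcripts of 2500 bases or more. Only 34.4% to 39.4% of these values lay within 0.1 of a whole fragment, so depth and intervals are uncertain.

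Members and lists were chosen with earlier results of these data known. All members are accounted for, those at 1 FPKM or more in any library with their values. Of the other lists, genes with a 2-fold call were to be named together with Ifnar1, Ifnar2, Ifngr1, Jak1, Tyk2, Irf3, Mavs, Tmem173, Mb21d1 and Tlr3 (1 further gene is not reported here), and of markers and stress genes only examples are given. Alternatives were other added amounts, other minima, other scalings, the sum over loci that share a symbol, and, chosen after seeing the data, leaving out each library.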

Additional observations from a re-analysis of the deposited data

Results flagged for a closer look

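For 8 of the 21 members that reached 1 FPKM in at least 1 of the unsorted libraries, the PMA libraries stood on opposite sides of the DMSO libraries in the 2 cell lines. This is why they are listed here, and the difference was not tested because each condition has 1 library. The share of all loci with opposite sides was not computed, so the count is not a result about the members. The PMA log2 ratio in SP2bKD cells minus that in 427 cells was 2.26 for Oasl2 (-1.20 in 427 cells and 1.06 in SP2bKD cells). It was -0.65 for Bst2 (0.44 and -0.22), -0.57 for Ifi27 (0.02 and -0.55) and 0.52 for Dtx3l (-0.34 and 0.18). The differences were 0.45 for Ifih1, 0.27 for Adar, 0.24 for Parp9 and -0.18 for Isg20, each from ratios of less than 0.4 in size. Of these only Oasl2 changed more than 2-fold with a level of 1 FPKM, and in 427 cells alone. Oasl2 reached 1 FPKM there with DMSO alone and so had to be lower with PMA.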

How the results depend on the processing

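No paired analysis was possible because each condition has 1 library. Of the values computed for single members under the alternatives, 1017 kept their side of the 2-fold threshold, 30 passed it and 12 no longer did, and none reversed. The counts of members that rose and fell moved with the minimum FPKM in every comparison and, between the cell lines, the number called higher moved most with scaling to a common FPKM sum. Values near 0 depend on the amount added.

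For transfection and sorting (1 rose, 2 fell, median -0.05), a minimum of 0.1 gave 8, 4 and 0.25, no minimum 10, 5 and 0.35, a minimum of 5 gave 0 and 1, and adding 1 left 1 that fell. For all loci these minima gave, in that order, 1491 and 1893 of 15363 (34 members), 2455 and 2565 of 17958 (38), and 230 and 225 of 9116 (14). Adding 1 gave 279 and 265 of 11066 loci. For EICD (2 rose, median 0.43), the number that rose was 6 at a minimum of 0.1, 7 with none, 0 at 5 and 0 when 1 was added. The loci that rose were, in that order, 1550 of 15294 (35 members), 2582 of 18300 (38), 187 of 9068 (14) and 196 of 11000 (23). For PMA in 427 cells (3 rose, 2 fell), a minimum of 0.1 gave 5 that fell, no minimum 6 and 7, a minimum of 5 gave 1 and 1, and adding 1 left 1 that fell. The loci that rose and fell at these minima were 1125 and 1680 of 15089 (31 members), 1819 and 2491 of 17793 (38), and 315 and 217 of 8987 (14). Adding 1 gave 346 and 208 of 10981 loci. For PMA in SP2bKD cells (3 rose, 1 fell, median 0.16), a minimum of 0.1 gave 10 and 2, no minimum 10 and 4, a minimum of 5 gave 1 and a median of 0.050, and scaling by the median of ratios 5 and a median of 0.28. Here the loci were 1161 and 1876 of 15120 (33 members), 1789 and 2671 of 17548 (36), and 279 and 344 of 9075 (14). Scaling by the median of ratios gave 523 and 518 of 10987 loci. Between cell lines with DMSO (1 higher, 1 lower), a minimum of 0.1 gave 4 and 3, no minimum 6 and 5, a minimum of 5 and adding 1 each gave 0 and 0, and scaling by the upper quartile or the median of ratios gave 2 lower. Loci called were 1434 and 1255 of 15272 (31 members), 2124 and 2062 of 17765 (37), and 212 and 139 of 9119 (14). Of 11078 loci, 255 and 190 were called when 1 was added, and 384 and 383 were lower with these scalings. With PMA (2 higher, 1 lower, median 0.23), a minimum of 0.1 gave 9 higher and a median of 0.37, no minimum 9 and 4, a minimum of 5 gave 0 lower, and adding 1 gave 0 higher. Loci called with PMA were 1310 and 1187 of 15040 (33 members), 1988 and 1995 of 17669 (37), and 107 and 148 of 8789 (14). Adding 1 gave 135 and 200 of 10840 loci.

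Scaling to an FPKM sum of 1000000 moved the median over all loci, to -0.11 for EICD, -0.36 for PMA in 427 cells, 1.01 for cell line with DMSO and 1.26 with PMA. Member medians became 0.24, -0.19, 1.16 and 1.45, and the median PMA difference between lines became 0.47. With DMSO 13 of 18 members were higher and 0 lower, where 5661 of 11078 loci were higher. With PMA 15 of 20 were higher and 0 lower, where 8555 of 10840 loci were higher. Relative to all loci the EICD median was 0.35 in this scaling and 0.36 as deposited, and 19 of 23 members were above 0.

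The count of members with both sorted libraries above the others was 9 of 25 at a minimum of 1 and 4 of 14 at a minimum of 5, where 14.5% and 13.8% of loci did so. Of 40 members it was 13 when scaled by the median of ratios and 16 when scaled to a common sum, beside 15.9% and 19.1% of loci. Leaving out each library in turn gave 15 to 23, the highest without the GFP library, where 31.6% of loci did so.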

Other observations

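Beyond the members, 57 of 69 further interferon-stimulated genes were found. For transfection and sorting 4 of 31 rose and 2 fell, where 4.01% of all loci rose and 5.14% fell. Those that rose were Nlrc5, the activator of class I antigen presentation genes (0.0107 to 1.06 FPKM), Tap1, a subunit of the peptide transporter (1.30 to 5.13), Ube2l6, the ISG15-conjugating enzyme (0.523 to 1.77), and Ifi203 (2.59 to 5.47). Herc6 and Sp110 fell, by 1.43 and 1.05 on the log2 scale. Nlrc5 and Ube2l6 passed the minimum through the GFP library alone and so had to be higher. Sp110 passed through the DMSO library alone and so had to be lower. Nlrc5 and Tap1 were also higher in the GFP plus EICD library (1.19 and 7.44 FPKM) than in any unsorted library, where they had at most 0.156 and 2.99.

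With EICD 2 of 30 rose, Trim14 (1.04 to 2.59 FPKM) and Lgals3bp (1.70 to 4.14), and none fell, where 3.93% of all loci rose and 0.836% fell. Of the 30, 70% were above 0 with a median log2 ratio of 0.18, against 58.1% and 0.07 over all loci. With PMA 4 of 32 rose in 427 cells and none fell, where 4.44% of loci rose and 5% fell, and 5 of 30 rose and 2 fell in SP2bKD cells, where 3.83% rose and 6.4% fell. Ifi205, Ifi203, Rnf213 and Helz2 rose in both lines, Trim21 rose in SP2bKD cells, and Sp110 and Tap1 fell there. Ifi205 passed the minimum through the PMA library alone in both lines. Sp110 and Tap1 passed in SP2bKD cells through the DMSO library alone. Between the cell lines with DMSO 3 of 30 were called higher in SP2bKD cells, Samd9l, Lgals9 and Sp110, and Tap1 was lower, where 3.92% of loci were higher and 3.13% lower. Samd9l and Sp110 passed there through the SP2bKD library alone. With PMA Samd9l and Lgals9 were higher, and Tap1 and Sp110 lower, of 32, where 2.56% of loci were higher and 3.27% lower. Tap1 and Sp110 passed with PMA through the 427 library alone.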
